A study of Mus musculus with 18 samples.

Results

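Hypoxia-inducible factors (HIFs) and genes they control were followed in mouse heart tissue after a coronary artery was tied. The set held 10 genes, given by name and found by symbol among 30583 genes of the count table. They are Hif1a and Epas1, which encode HIF-1α and HIF-2α, Egln1 and Egln3, which encode 2 of the enzymes that mark HIF-α for destruction, and 6 target genes, Vegfa, Adm, Bnip3, Ndrg1, Ankrd37 and Car9. Male C57BL/6JR mice, 12 weeks old and with no transgene or mutation named in the labels, fell into 6 groups of 3, with 1 library per mouse. In 5 groups a myocardial infarction (MI) was caused by tying off (ligating) the left anterior descending coronary artery, and hearts were taken after 10 min or after 1, 6, 24 or 72 h. The sham group (0 h) had the thread passed around the vessel without tying it. All groups thus share the anaesthesia with sodium pentobarbital and the operation. No sham hearts were taken at later times, so the contrasts with sham cannot tell ligation apart from time since the operation. The source of the RNA is given as the myocardium of the infarcted left ventricle, although the vessel of sham hearts was not tied. RNA was selected for poly(A) and sequenced to 18.2 to 25.1 M counts per library (M, mega). The series title names a time course of gene expression and DNA methylation; methylation was not analysed here.

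Cells with enough oxygen make HIF-α proteins and destroy them at once: the prolyl hydroxylases encoded by the Egln genes use oxygen to hydroxylate HIF-α, and the von Hippel-Lindau protein then directs it to the proteasome. When oxygen is short, HIF-α persists, pairs with ARNT and binds DNA at a short core, ACGTG or GCGTG, near target genes for glucose use, vessel growth, mitochondrial removal and acid balance. HIF activity is therefore set largely at the protein level, which RNA counts do not measure, and several Egln genes are themselves targets, which closes a feedback loop.

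The deposited labels give cardiomyocytes as the cell type, but no separation of cells is described, and the libraries held transcripts of many cell types. All 8 cardiomyocyte markers were present in every group, 8 of 8 were called lower at 72 h, and their summed level went from 67830 to 72980 CPM (counts per M counts) in sham libraries to 17220 to 23080 CPM at 72 h. The summed level of 8 macrophage markers went from 208 to 240 CPM in sham to 2906 to 3767 CPM at 72 h. Over the same span, that of 8 fibroblast markers went from 806 to 909 CPM to 10250 to 12710 CPM. The 8 endothelial markers summed to 1381 to 1510 CPM in sham and 844 to 1080 CPM at 72 h. Adipocyte markers stayed at or under 2.49 CPM in all. In tissue of mixed cells, fewer cells of a type and less RNA per cell cannot be told apart, and this holds for every level below.

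The binding core is shown first because it is the sequence that the named targets are thought to share. RefSeq promoter windows on GRCm38.p6, from 250 bases before to 50 bases after an annotated start, were at hand for 8 of the 10 genes (9 windows, since Vegfa has 2 starts), and for neither Epas1 nor Ndrg1. ACGTG was searched on both strands and was present in a window of 7 of the 8 genes, all but Adm. GCGTG was searched likewise, and Adm held only that core, so that 8 of 8 genes held 1 of the cores. Of all 32851 mouse windows of 300 bases, 19.6% held ACGTG, 32.4% GCGTG and 43.8% at least 1 of them. These shares count windows, whereas the counts of members are of genes with the core in any window. Vegfa held its cores only in the window of the internal start, at chr17:46025114-46025413 inside the gene, and none in the window of the upstream start, at chr17:46032328-46032627. Bases after the internal start were not matched to a GENCODE transcript, and the stretches with its cores overlap annotated exons. Bases after the upstream start did match. Vegfa thus enters the counts of 7 and 8 genes only through the unmatched window. The stretches below lie outside annotated exons and are written 5′ to 3′ in the direction of the gene, with the core, or its reverse complement CACGT or CACGC, in capitals. The 5 genes shown are the factor Hif1a, the hydroxylase Egln3 and the targets Bnip3, Ankrd37 and Adm, whose RNA levels the results turn on.
Hif1a, chr12:73907777-73907821, plus strand, core starting 70 bases before the start: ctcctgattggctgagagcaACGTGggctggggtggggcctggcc
Egln3, chr12:54204079-54204123, minus strand, core starting 229 bases before the start: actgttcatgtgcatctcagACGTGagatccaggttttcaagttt
Bnip3, chr7:138909589-138909633, minus strand, core starting 107 bases before the start: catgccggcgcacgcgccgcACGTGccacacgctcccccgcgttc
Ankrd37, chr8:46000067-46000100, minus strand, core starting 241 bases before the start: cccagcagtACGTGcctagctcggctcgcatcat
Adm, chr7:110627583-110627627, plus strand, GCGTG on the other strand starting 54 bases before the start: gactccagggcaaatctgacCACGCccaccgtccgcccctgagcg
The Bnip3 core sits in the palindrome CACGTG, which was counted once on each strand, and has GCGTG cores on both sides, starting 117 and 99 bases before the start. A second Hif1a core, 135 bases before the start, is also such a palindrome. The Hif1a window belongs to a RefSeq start inside the gene span of GENCODE M21, and that start was not matched to the 5′ end of a GENCODE transcript. The Ankrd37 window, chr8:45999801-46000100, also lies inside the GENCODE span of its gene. Bases after that start occur in a GENCODE transcript, but their place at its 5′ end was not checked. These matches describe letters in a window. They do not show that a factor bound there.

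The first question was when the set differed from sham. The members were chosen with earlier results of these data known, so their counts are description. No member was called at 10 min (0 of 10, edgeR adjusted p under 0.05, adjusted over 16311 genes) or at 1 h (0 of 10). The unadjusted p was also above 0.05 for all 10 at both times, and DESeq2 and limma each called 0 as well. Few genes of any kind were called then, 0.0736% at 10 min and 0.294% at 1 h, and between 10 min and 1 h 0 members and 0.307% of genes differed. At 6 h 4 of 10 members rose (Hif1a, Adm, Bnip3 and Ndrg1) and 0 fell, where 16.3% of all genes rose. At 24 h 4 members rose (Hif1a, Adm, Ankrd37 and Car9), against 23.7% of all genes, and 2 fell (Epas1 and Egln1), against 20.2%. Without 24 h replicate 3 the members that rose at 24 h numbered 2, and without 24 h replicate 2 they numbered 7. At 72 h 2 were higher than sham (Hif1a and Car9), against 34.2% of all genes, and 5 were lower (Epas1, Egln1, Egln3, Vegfa and Bnip3), against 32.2%. All 10 members differed somewhere in the time course by the F test, as did 78.4% of the genes tested. The members' median log2 fold change against sham was 0.48 at 6 h, 0.58 at 24 h and -0.64 at 72 h, beside medians over the tested genes of -0.01, 0.01 and 0.03.

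The comparisons of one time with another placed the turns of the profiles. From 1 h to 6 h 5 members rose (Hif1a, Adm, Ankrd37, Bnip3 and Ndrg1), where 14.5% of all genes rose. From 6 h to 24 h Car9 rose (14.2% of all genes did), and Epas1, Egln1, Adm and Bnip3 fell (13.7% of all genes). That count of 5 is the least stable of the set: it was 3 without 6 h replicate 1 or without 24 h replicate 2, 7 without 24 h replicate 3, and 2 when only the libraries of those times entered the fit. From 24 h to 72 h 8 members fell, all but Hif1a and Car9, where 26.1% of all genes fell. Between 6 h and 72 h Car9 rose (31.3% of all genes) and 7 members fell (31.6% of all genes), with Hif1a and Ankrd37 the members not called. All these contrasts come from 1 fit to the 18 libraries, and those with sham share the same 3 sham libraries.

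**Figure D1:**
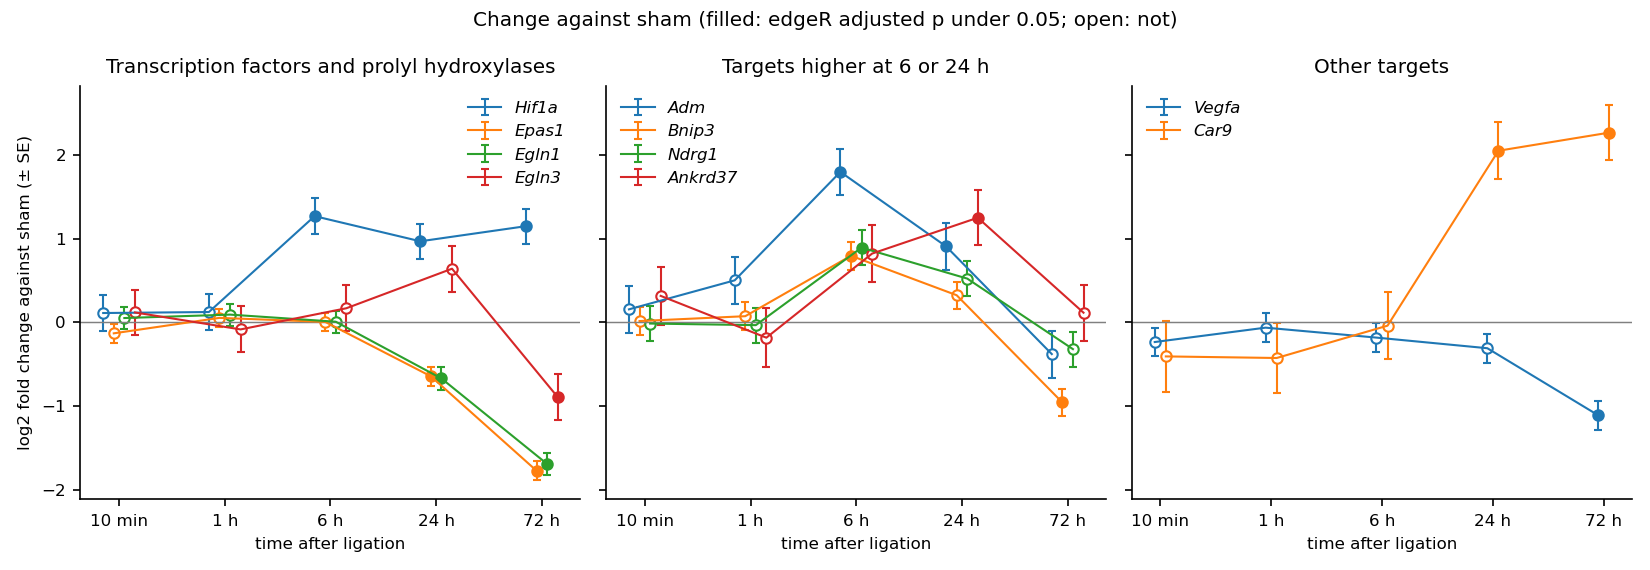
Log2 fold change against sham (vertical axis, with its SE) at 10 min, 1, 6, 24 and 72 h (horizontal axis) for the 10 genes, from the edgeR fit to 18 libraries. Filled points passed an adjusted p of 0.05: 4 at 6 h, 6 at 24 h and 7 at 72 h, with none at 10 min or 1 h. Hif1a and Car9 end above sham, and Epas1, Egln1, Egln3, Vegfa and Bnip3 below it.

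The 2 HIF-α genes parted from each other. Hif1a (ENSMUSG00000021109, chr12:73901375-73947530, plus strand, GENCODE M21 on GRCm38) encodes the subunit found in most cell types. Its level was 56.2, 50.7 and 50.8 CPM in sham replicates 1, 2 and 3, and 58.3, 48.0 and 64.2 CPM at 10 min. At 1 h it was 57.4, 55.9 and 58.5 CPM. These first 9 libraries overlapped and none exceeded 64.2 CPM. At 6 h the replicates read 167.1, 118.0 and 95.3 CPM, at 24 h 90.9, 75.0 and 143.1 CPM, and at 72 h 104.0, 127.5 and 118.4 CPM. All 9 of these later libraries lay above all 9 earlier ones, and 6 h replicate 1 was the highest. Against sham, Hif1a rose by a log2 fold change of 1.27 ± 0.21 (SE) at 6 h (edgeR adjusted p = 0.000429). It was higher by 0.97 ± 0.21 at 24 h (edgeR adjusted p = 0.00167) and by 1.15 ± 0.21 at 72 h (edgeR adjusted p = 0.000148). From 6 to 72 h the difference of -0.12 ± 0.21 did not pass the test (edgeR adjusted p = 0.629). A predicted antisense gene, Gm15283, shares 330 exon bases with Hif1a, but it held 488 counts over the 18 libraries against 34887 for Hif1a.

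Epas1 (ENSMUSG00000024140, chr17:86753700-86833410, plus strand) encodes HIF-2α, the subunit known for its high level in endothelium. In sham it measured 540.7, 581.4 and 531.5 CPM, and the means were 503 ± 13.2 CPM at 10 min, 572 ± 55.8 CPM at 1 h and 553 ± 26.1 CPM at 6 h (SD, n = 3). At 24 h the libraries held 379, 372 and 306 CPM, and at 72 h 171, 174 and 138 CPM. Every library of 24 h was below every earlier one, and every library of 72 h was below those of 24 h. Epas1 fell by 0.65 ± 0.11 on the log2 scale at 24 h (edgeR adjusted p = 0.0002) and by 1.78 ± 0.11 at 72 h (edgeR adjusted p = 3.78e-10), to 29.2% of the sham mean. Endothelial markers stood at 82.5% of their sham sum at 24 h and 65.5% at 72 h, and cardiomyocyte markers at 57.1% and 27.7%. Their part in the fall of Epas1 was not tested.

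Per length of transcript, sham hearts held far less Hif1a than Epas1. Their mean levels were 8.92 and 104 FPKM (fragments per kilobase and per M counts, on TMM-scaled totals, n = 3). Within each library the ratio does not depend on how libraries are scaled. Hif1a stood at 8.59% of Epas1 in sham (geometric mean, range 7.85 to 9.36%), 10.1% at 10 min and 9.05% at 1 h. It was 20.1% at 6 h (15.0 to 28.8%), 25.5% at 24 h (18.2 to 42.2%) and 65.4% at 72 h (54.8 to 77.3%). The ranges of sham and 6 h did not overlap, those of 6 h and 24 h did, and those of 24 h and 72 h did not. Epas1 was the more abundant transcript in all 18 libraries.

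**Figure D2:**
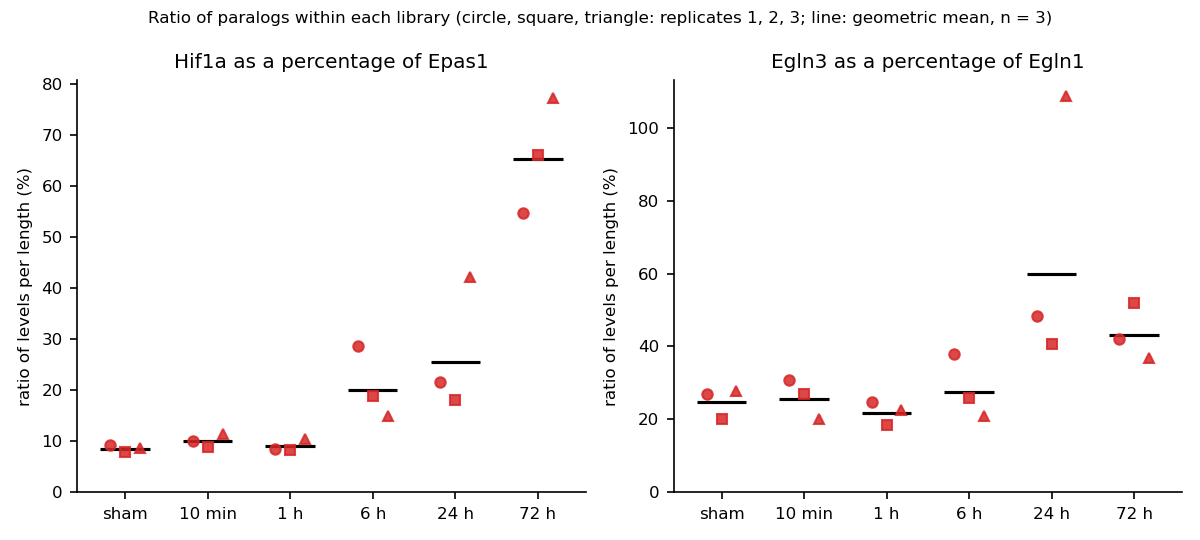
Level of Hif1a as a percentage of Epas1 (left) and of Egln3 as a percentage of Egln1 (right), per transcript length, in each of 18 libraries, by time, with the geometric mean of 3 as a line. Hif1a reaches 54.8 to 77.3% of Epas1 at 72 h from 7.85 to 9.36% in sham, and Egln3 exceeds Egln1 in 1 library, 24 h replicate 3, at 108.6%.

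The hydroxylase genes came next. Egln1 (ENSMUSG00000031987, chr8:124908587-124949324, minus strand) encodes PHD2, the main oxygen sensor that acts on HIF-1α. Its libraries ran from 344 to 433 CPM in sham and up to 6 h, with a sham mean of 380 ± 8.40 CPM. At 24 h they held 294, 230 and 192 CPM and at 72 h 134, 106 and 112 CPM. The 24 h libraries were all below the earlier ones, and the 72 h libraries below those. Egln1 fell by 0.67 ± 0.13 on the log2 scale at 24 h (edgeR adjusted p = 0.000605) and by 1.70 ± 0.14 at 72 h (edgeR adjusted p = 5.13e-09), to 30.9% of the sham mean. In these steps it stayed close to Epas1, whose values were -0.65 and -1.78.

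Egln3 (ENSMUSG00000035105, chr12:54178981-54203860, minus strand) encodes PHD3, a hydroxylase whose gene is a well known HIF target in muscle and heart cells. Sham libraries held 74.9, 58.0 and 77.5 CPM, and those of 10 min, 1 h and 6 h ran from 54.4 to 96.4 CPM. At 24 h the replicates were spread, at 105.2, 69.2 and 154.1 CPM, and at 72 h they were 41.8, 40.7 and 30.5 CPM. The 24 h libraries overlapped sham through replicate 2, while every 72 h library was under every sham library. The difference at 24 h, 0.64 ± 0.27 on the log2 scale, did not pass the test (edgeR adjusted p = 0.0708), and without 24 h replicate 3 it was 0.32. Without 24 h replicate 2 it was 0.89 and passed. Egln3 fell by 0.90 ± 0.28 against sham at 72 h (edgeR adjusted p = 0.0101) and by 1.54 ± 0.28 from 24 h to 72 h (edgeR adjusted p = 0.000314). Scaled to library totals instead of TMM, the 72 h difference from sham was -0.32 and did not pass.

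Relative to Egln1, Egln3 held a larger share after the first day. Per length, Egln3 stood at 24.7% of Egln1 in sham (20.1 to 27.9%), 25.5% at 10 min, 21.8% at 1 h and 27.4% at 6 h. It stood at 59.8% at 24 h (40.7 to 108.6%) and 43.2% at 72 h (36.9 to 52.0%). Both late ranges lay above the sham range.

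Of the 6 targets, Adm, Bnip3 and Ndrg1 had their highest mean at 6 h. Adm (ENSMUSG00000030790, chr7:110627661-110629820, plus strand) encodes adrenomedullin, a peptide that widens vessels. It measured 8.69, 8.55 and 7.59 CPM in sham, 8.46, 9.70 and 9.43 CPM at 10 min, and 11.3, 10.1 and 13.8 CPM at 1 h. The 1 h libraries were all above sham, but the difference of 0.50 ± 0.28 on the log2 scale did not pass the test (edgeR adjusted p = 0.934). At 6 h Adm reached 40.9, 22.5 and 23.1 CPM, at 24 h 14.3, 9.37 and 23.2 CPM, and at 72 h 6.30, 5.42 and 7.34 CPM. All 3 libraries of 6 h exceeded all 9 earlier ones. Adm rose by 1.80 ± 0.28 on the log2 scale at 6 h (edgeR adjusted p = 0.000239), or 1.46 without replicate 1 of that time, in which it was highest. At 24 h it was higher than sham by 0.91 ± 0.28 (edgeR adjusted p = 0.0143). That call was lost without 24 h replicate 3, where the value was 0.51, and without sham replicate 3, where it was 0.85. From 24 h to 72 h Adm fell by 1.29 ± 0.28 (edgeR adjusted p = 0.000994), and its 72 h level against sham was -0.38 ± 0.28 (edgeR adjusted p = 0.245).

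Bnip3 (ENSMUSG00000078566, chr7:138890836-138909519, minus strand) encodes a protein of the outer mitochondrial membrane that promotes mitophagy and cell death. Its sham libraries held 81.1, 87.1 and 80.1 CPM, and those of 10 min and 1 h ran from 74.4 to 98.5 CPM. At 6 h the values were 158, 117 and 156 CPM, at 24 h 125, 71.4 and 115 CPM, and at 72 h 44.3, 45.5 and 37.9 CPM. All 6 h libraries were above all earlier ones, the 24 h libraries straddled sham, and the 72 h libraries were the lowest of the 18. Bnip3 rose by 0.80 ± 0.17 on the log2 scale at 6 h (edgeR adjusted p = 0.00179) and was lower than sham by 72 h, at -0.96 ± 0.17 (edgeR adjusted p = 6.23e-05). At 24 h the value of 0.32 ± 0.16 did not pass (edgeR adjusted p = 0.119), although it was 0.53 and passed without replicate 2 of that time. It was also called there under library totals, at 0.51, where the 72 h value was -0.37.

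Ndrg1 (ENSMUSG00000005125, chr15:66929318-66969640, minus strand) encodes a cytoplasmic protein induced by stress and low oxygen. Levels ran from 38.5 to 45.8 CPM in the 9 libraries of sham, 10 min and 1 h. They were 91.7, 68.8 and 78.5 CPM at 6 h, 50.7, 41.0 and 93.6 CPM at 24 h, and 32.7, 37.1 and 33.1 CPM at 72 h. The 6 h group stood clear of the earlier libraries, and at 24 h only replicate 3 was at the 6 h level. The difference from 6 h to 24 h, -0.37 ± 0.21 on the log2 scale, did not pass the test (edgeR adjusted p = 0.2). Ndrg1 rose by 0.89 ± 0.21 on the log2 scale at 6 h (edgeR adjusted p = 0.00502). At 24 h the value was 0.52 ± 0.21 (edgeR adjusted p = 0.0533). It was 0.10 without 24 h replicate 3, and it passed without replicate 1 (0.66) or without replicate 2 (0.75). The fall from 24 h to 72 h was -0.84 ± 0.21 (edgeR adjusted p = 0.0031), which left Ndrg1 at -0.32 ± 0.21 against sham (edgeR adjusted p = 0.187).

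**Figure D3:**
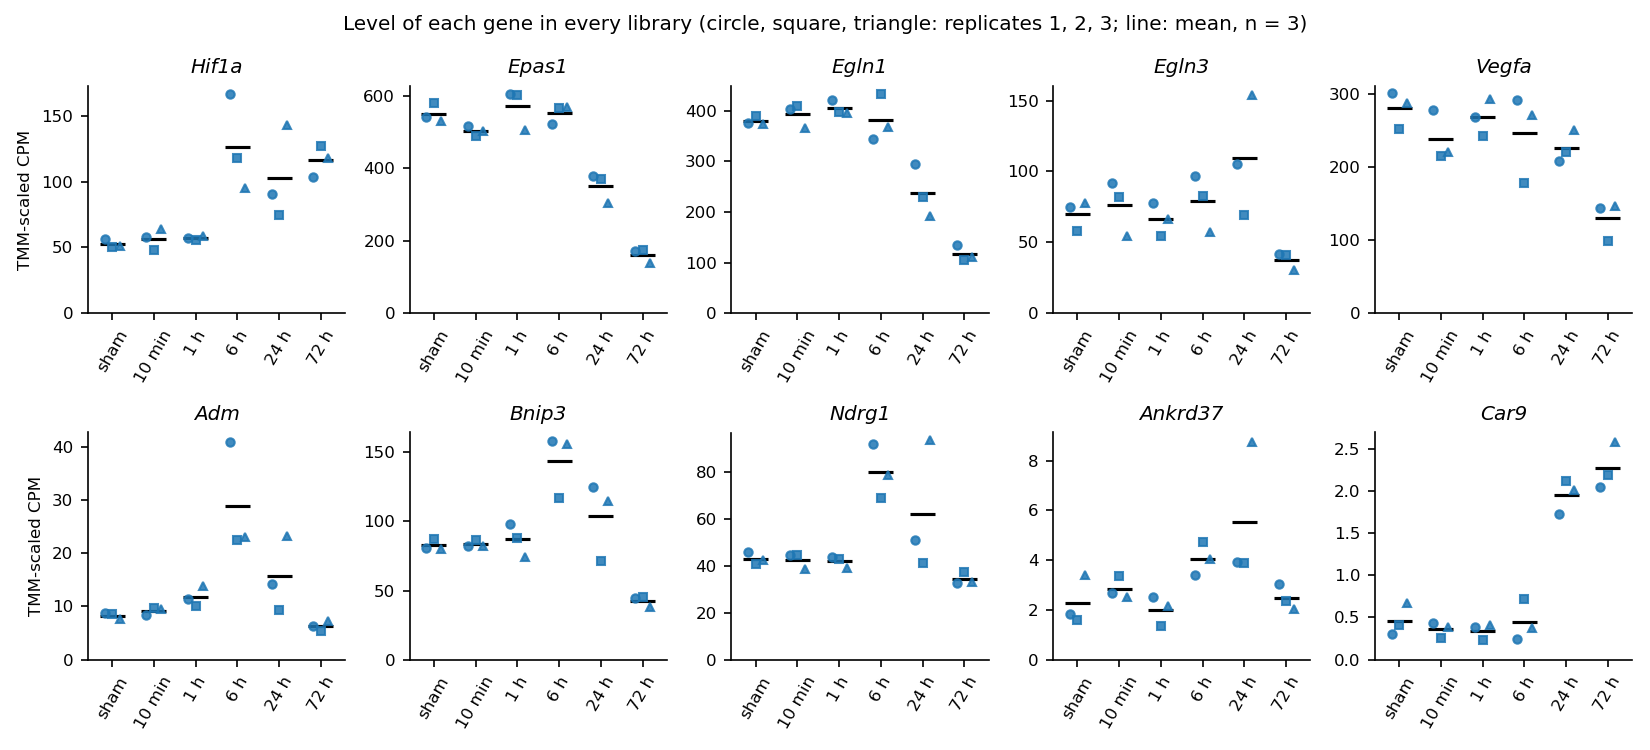
TMM-scaled CPM (vertical axes, each from 0) of the 10 genes in every library by time, with the mean of 3 as a line. Adm, Bnip3 and Ndrg1 are highest on average at 6 h, Egln3 and Ankrd37 at 24 h with 1 high library, replicate 3, and Car9 is above 1.7 CPM only in the 6 libraries of 24 and 72 h.

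Ankrd37 and Car9 were scarce, with their highest means at 24 h and 72 h respectively. Ankrd37 (ENSMUSG00000050914, chr8:45996902-46005707, minus strand) encodes a small ankyrin repeat protein known as a direct HIF-1 target. Sham libraries held 1.82, 1.61 and 3.42 CPM, with as few as 31 counts in one of them. At 6 h the levels were 3.40, 4.73 and 4.05 CPM, at 24 h 3.93, 3.89 and 8.76 CPM, and at 72 h 3.06, 2.37 and 2.03 CPM. All 24 h libraries were above all sham libraries, narrowly for replicates 1 and 2, and the 6 h and 72 h groups overlapped sham. Ankrd37 rose by 1.25 ± 0.33 on the log2 scale at 24 h (edgeR adjusted p = 0.00536), but without 24 h replicate 3 the value was 0.76 and not called. At 6 h it was 0.82 ± 0.34 against sham (edgeR adjusted p = 0.0752), which became 1.25 and passed without sham replicate 3, the sham library with the highest level. From 1 h to 6 h it rose by 1.01 ± 0.34 (edgeR adjusted p = 0.04). From 6 h to 24 h Ankrd37 differed by 0.43 ± 0.32, which did not pass (edgeR adjusted p = 0.338). Its exons overlap Ufsp2 on the opposite strand by 57 bases and Lrp2bp by 349 bases. Ufsp2 held 7944 counts in all and Lrp2bp 239, against 1266 for Ankrd37, and the strand setting of the counting is not given in the sources used here, so reads in the overlaps cannot be assigned. Ufsp2 moved little up to 24 h (17.8 ± 0.50 CPM in sham, 18.6 ± 0.35 CPM at 24 h; SD, n = 3) and stood at 27.9 ± 1.69 CPM at 72 h.

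Car9 (ENSMUSG00000028463, chr4:43506966-43513729, plus strand) encodes carbonic anhydrase 9, a cell surface enzyme that handles acid and is among the most strictly HIF-dependent genes. It was near the lower limit of detection in the first 12 libraries, at 0.237 to 0.717 CPM, with as few as 4 counts. At 24 h it was 1.73, 2.12 and 2.01 CPM and at 72 h 2.05, 2.19 and 2.58 CPM. All 6 late libraries were above all 12 earlier ones, and the late groups overlapped. Car9 rose by 2.05 ± 0.34 on the log2 scale at 24 h (edgeR adjusted p = 0.000148) and was 2.27 ± 0.33 above sham at 72 h (edgeR adjusted p = 8.53e-06). It rose between 6 h and 24 h by 2.09 ± 0.35 (edgeR adjusted p = 0.000344). The filter on low counts kept Car9 through those late libraries: 8 of 18 libraries reached its limit of 0.459 CPM, 6 of them at 24 or 72 h, so that passing the filter and differing were not independent. Gm12454 overlaps it on the other strand by 214 exon bases and held 110 counts in all against 451. That gene's mean was 0.363 CPM in sham and 0.364 CPM at 72 h. At 72 h 8 of 8 macrophage markers, 8 of 8 fibroblast markers and 5 of 5 cell cycle markers were called higher than sham, and their part in the level of Car9 was not tested.

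The last target, Vegfa (ENSMUSG00000023951, chr17:46016993-46032369, minus strand), encodes the main growth factor for vessels. Sham libraries held 301.4, 253.0 and 288.6 CPM, and those from 10 min to 6 h ran from 178 to 294 CPM. The 24 h libraries measured 208, 221 and 251 CPM, and those of 72 h 145, 99.1 and 146 CPM. At 6 h, when the means of Adm, Bnip3 and Ndrg1 were highest, Vegfa libraries overlapped sham, with replicate 2 the lowest. The value was -0.18 ± 0.17 on the log2 scale (edgeR adjusted p = 0.457). At 24 h each library was under the lowest sham library, but -0.31 ± 0.17 did not pass (edgeR adjusted p = 0.154). Vegfa fell by 1.11 ± 0.17 against sham at 72 h (edgeR adjusted p = 1.94e-05), and by 0.53 when libraries were scaled to their totals, a call that was kept.

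Scaling moved the values most at the late times. With library totals in place of TMM, the typical gene shifted: the median over all genes became -0.12 at 6 h, 0.20 after 24 h and 0.61 after 72 h (log2). Directions at 72 h are therefore relative to the bulk of genes. Under library totals the falls of Epas1 and Egln1 at 72 h were -1.19 and -1.11, and the rises of Hif1a and Car9 1.74 and 2.85. Members called numbered 7 higher and 2 lower at 24 h under that scaling, with Egln3, Bnip3 and Ndrg1 added, and 2 higher and 4 lower at 72 h, with Egln3 dropped. The shares of all genes called under library totals are not given here. Counts under that scaling, here and for the lists below, therefore cannot be set against them. No called member changed sign.

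Ordered by level per length, Egln1 and Epas1 led in sham at 106 and 104 FPKM, with overlapping ranges. Vegfa (65.6 FPKM), Bnip3 (36.5), Egln3 (26.3), Hif1a (8.92), Ndrg1 (6.51), Adm (5.11), Ankrd37 (1.48) and Car9 (0.200) followed, each clear of its neighbours. At 6 h Bnip3 (63.5 FPKM) and Vegfa (57.8) overlapped, as did Egln3 (29.6), Hif1a (21.5), Adm (17.8) and Ndrg1 (12.1), each with the next. At 24 h Epas1, Egln1, Vegfa, Bnip3 and Egln3 ran from 66.3 to 41.1 FPKM, each overlapping the next. At 72 h Egln1 (32.6 FPKM), Vegfa (30.3) and Epas1 (30.3) overlapped at the top, and Hif1a, at 19.8 FPKM, had passed Egln3 (14.2) and overlapped Bnip3 (18.8).

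Replicates at 6 h and 24 h were uneven, and the uneven libraries were the same for several members. Of the 10 genes, 6 were highest in replicate 1 within the 6 h group (Hif1a, Egln3, Vegfa, Adm, Bnip3 and Ndrg1), and the other 4 were lowest there. Likewise, 6 were highest in replicate 3 at 24 h (Hif1a, Egln3, Vegfa, Adm, Ankrd37 and Ndrg1), where Epas1 and Egln1 were lowest. These were also the libraries with the most neutrophil signal. The 7 neutrophil markers summed to 786, 281 and 108 CPM in replicates 1, 2 and 3 at 6 h and to 187, 46.2 and 805 CPM at 24 h, against 3.03 to 4.61 CPM in sham and 61.5 to 77.1 CPM at 72 h. Macrophage markers were likewise highest there, at 451, 312 and 214 CPM at 6 h and 536, 532 and 791 CPM at 24 h. Cardiomyocyte markers were lowest there, at 58900 CPM in 6 h replicate 1 and 30310 CPM in 24 h replicate 3. Endothelial markers were also highest there, at 1859 CPM in 6 h replicate 1 and 1280 CPM in 24 h replicate 3. At 24 h the order of the 3 libraries was the same for the neutrophil and macrophage sums, Hif1a, Egln3, Adm, Ankrd37 and Ndrg1. At 6 h Hif1a and Egln3 shared the order of the neutrophil and macrophage sums, but Adm, Ankrd37 and Ndrg1 did not. The part of these cell types in the members' levels was not tested. With both libraries left out, an alternative chosen after seeing the data, 5 members were called higher at 6 h, and at 24 h 4 higher and 2 lower, as in the full fit. Hif1a was then 1.02 above sham at 6 h and 0.66 at 24 h on the log2 scale, and Adm 1.46 and 0.51. At 72 h the fit without both libraries called 2 members higher and 7 lower, where the full fit called 2 and 5. The shares of all genes called without both libraries are not given here, so these counts of members cannot be set against them.

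**Figure D4:**
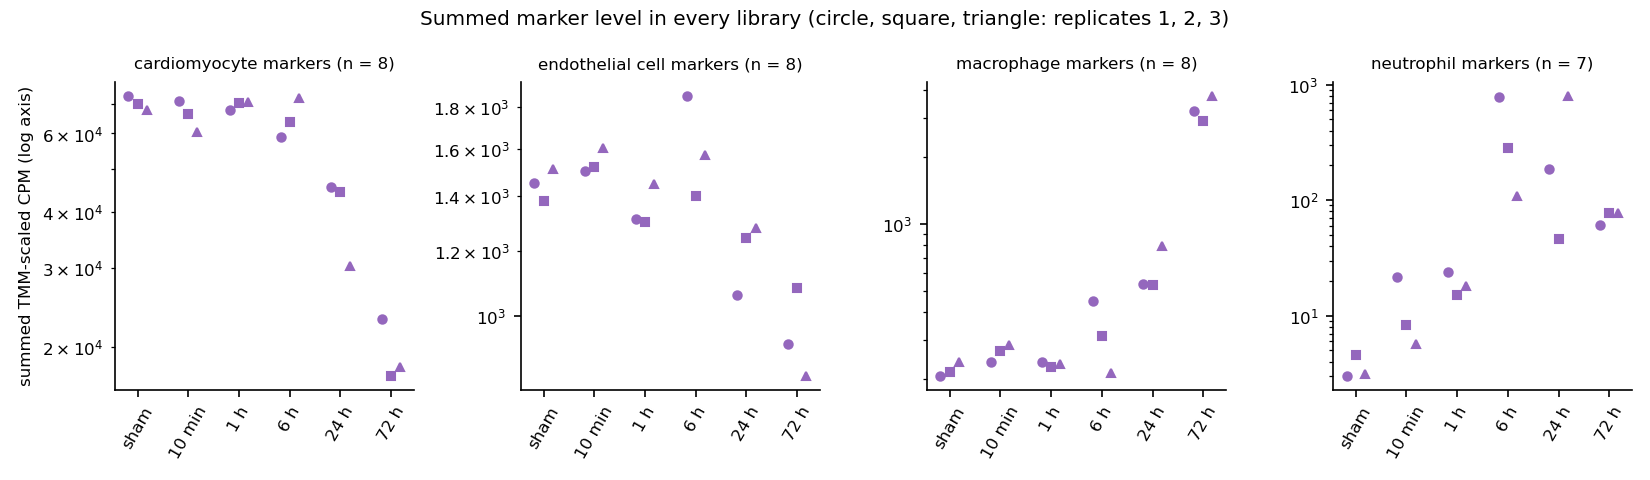
Summed TMM-scaled CPM of cell type markers (vertical log axes) in every library by time. Cardiomyocyte markers fall to 17220 to 23080 CPM at 72 h, macrophage markers reach 2906 to 3767 CPM, and neutrophil markers peak in 6 h replicate 1 (786 CPM) and 24 h replicate 3 (805 CPM).

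The rest of the HIF system was read from lists of its regulators and further targets. These lists were chosen with earlier results of these data known, so their counts are description and not independent support. Of 15 regulators, 1 rose at 1 h and 7 rose at 6 h, with none lower, where 16.3% of all genes rose at 6 h. At 24 h 2 rose (Vhl and Siah2), no more than the 23.7% of all genes. At 72 h 2 were higher (Arnt2 and Vhl) and 7 lower, beside 34.2% and 32.2% of all genes. Vhl and Siah2 are named because the counts are small and were chosen after their values were seen. The list's median log2 fold change was 0.10 at 1 h, 0.23 at 6 h, 0.02 at 24 h and -0.24 at 72 h. The 6 h count was 4 without 6 h replicate 1 or without sham replicate 2. Without sham replicate 2 also 4, not 7, were lower at 72 h, and without 24 h replicate 3 the 24 h count was 1. Under library totals 4 rose at 6 h and 7 at 24 h (limma gave 4 and 5). The 72 h split turned to 11 higher and 0 lower under library totals, with a median of 0.35 beside 0.61 over all genes. The late direction of this list therefore depends on scaling. That is not so for the falls of Epas1 and Egln1.

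Cited2, which encodes a HIF-induced protein that competes with HIF-α for the coactivators p300 and CBP, was called at 1 h, when no member was. It measured 43.0 ± 3.89 CPM in sham, 80.7 ± 9.72 CPM at 1 h and 70.5 ± 10.2 CPM at 6 h (SD, n = 3). Cited2 rose by 0.91 ± 0.13 on the log2 scale at 1 h (edgeR adjusted p = 0.00103) and 0.71 ± 0.13 at 6 h (edgeR adjusted p = 0.000555). At 72 h the value was -0.28 (edgeR adjusted p = 0.0665) and turned to 0.31 under library totals. Egln2, the remaining prolyl hydroxylase of the family, was 74.6 ± 5.20 CPM in sham, 87.8 ± 2.41 CPM at 6 h and 53.1 ± 3.62 CPM at 72 h. Its change at 6 h was small, 0.23 ± 0.08 (edgeR adjusted p = 0.0309), and did not pass when any of 5 libraries was left out, such as sham replicate 1 (0.18). At 72 h it was -0.49 ± 0.08 (edgeR adjusted p = 2e-05) with TMM and 0.10 under library totals. Siah1a, which encodes a ubiquitin ligase that acts on prolyl hydroxylases, rose by 0.57 ± 0.11 at 6 h (edgeR adjusted p = 0.00073). Its 72 h value, -0.28 ± 0.11 (edgeR adjusted p = 0.0249), was 0.30 under library totals. Arnt2, a partner of HIF-α related to ARNT, was scarce, at 0.145 ± 0.039 CPM in sham and 1.08 ± 0.278 CPM at 72 h. It had 1 to 7 counts in each library before 72 h and 28 to 44 at 72 h. The filter on low counts kept it only through the 3 libraries of 72 h, so its call at that time is not independent of the filter.

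Targets in glycolysis and glucose uptake were called in both directions at 72 h. Of 15 tested, 7 rose at 6 h and 10 at 24 h with none lower, beside 16.3% and 23.7% of all genes, and at 72 h 5 were higher (Pfkp, Pfkfb4, Pgam1, Eno1 and Slc16a3) and 5 lower (Hk1, Hk2, Pfkl, Tpi1 and Pdk1). The 72 h counts are near the shares over all genes, 34.2% higher and 32.2% lower. Those outside Hk2, Pdk1, Pfkp and Pfkfb4 are named because the counts are small and were chosen after their values were seen. The list's median was 0.33 at 6 h, 0.78 at 24 h and 0.38 at 72 h. Gapdh, whose counts were erratic, bears on this: without it the medians were 0.33, 0.65 and 0.19. At 6 h 3 were called without 6 h replicate 1 and 4 without sham replicate 2 or 3, or in limma. Under library totals the 72 h split was 8 higher and 2 lower, with a median of 0.90 beside 0.61 over all genes. Hk2, a muscle hexokinase, overlapped sham at 6 h and fell from 338.5 ± 18.4 CPM in sham to 119 ± 12.6 CPM at 72 h (SD, n = 3; edgeR adjusted p = 1.95e-09). Pdk1, which encodes a pyruvate dehydrogenase kinase, fell from 163 ± 5.00 CPM in sham to 72.1 ± 2.29 CPM at 72 h (SD, n = 3; edgeR adjusted p = 5.28e-08). Pfkp, the platelet form of phosphofructokinase, rose by 1.38 ± 0.18 at 6 h (edgeR adjusted p = 4.39e-05) and stood 0.64 ± 0.18 above sham at 72 h (edgeR adjusted p = 0.00401). Pfkfb4, which makes the activator of phosphofructokinase, reached 2.18 ± 0.24 at 72 h (edgeR adjusted p = 2.93e-07). Its 6 h value of 0.79 ± 0.25 (edgeR adjusted p = 0.0247) was 0.55 and not called without 6 h replicate 1. That call was also lost without sham replicate 1, 2 or 3 (0.75 to 0.83) and in limma (0.30). The counts of Gapdh ran from 99 to 7927 over the libraries, and from 158 to 4142 within sham. Its level is treated as uncertain, since it has near-identical copies in the genome, and their part in the spread was not tested.

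Of 29 targets with other functions, 12 rose and 1 fell at 6 h (Stc2), 9 rose and 3 fell at 24 h (Stc2, Higd1a and Rora), and 9 were higher and 8 lower at 72 h. Over all genes, 16.3% rose at 6 h, 23.7% rose and 20.2% fell at 24 h, and 34.2% were higher and 32.2% lower at 72 h, so that the 72 h counts are near those shares. Stc2 and Rora are named after their values were seen, since those counts are small. At 6 h 6 rose without 6 h replicate 1 and 7 without sham replicate 3; at 24 h 5 fell without 24 h replicate 1, and 2 fell at 6 h without 24 h replicate 3. Under library totals the 24 h split was 16 higher and 2 lower and the 72 h split 16 higher and 3 lower. The median with TMM was 0.24 at 6 h, 0.22 at 24 h and 0.05 at 72 h. Under library totals the 72 h median was 0.63, beside 0.61 over all genes. Lox, a collagen cross-linking enzyme, went from 5.14 ± 1.25 CPM in sham to 37.6 ± 3.84 CPM at 6 h and 298 ± 45.8 CPM at 72 h (SD, n = 3). Its log2 fold change at 72 h was 5.85 ± 0.28 (edgeR adjusted p = 1.34e-10), in tissue where fibroblast markers stood at 1319% of their sham sum; their part in it was not tested. Hmox1, heme oxygenase 1, was 5.23 ± 0.767 CPM in sham and 339 ± 31.0 CPM at 72 h, a change of 6.02 ± 0.57 (edgeR adjusted p = 5.36e-07), beside macrophage markers at 1492% of sham, whose part was not tested either. Plod2, a collagen lysyl hydroxylase, was 1.17 ± 0.12 above sham at 72 h (edgeR adjusted p = 1.45e-07). Its 6 h value of 0.34 ± 0.12 (edgeR adjusted p = 0.0496) was lost when any of the 6 libraries compared was left out, with values from 0.30 to 0.36. Higd1a, a mitochondrial protein, fell by 0.48 ± 0.11 at 24 h (edgeR adjusted p = 0.00244) and by 1.34 ± 0.11 at 72 h (edgeR adjusted p = 1.17e-08).

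**Figure D5:**
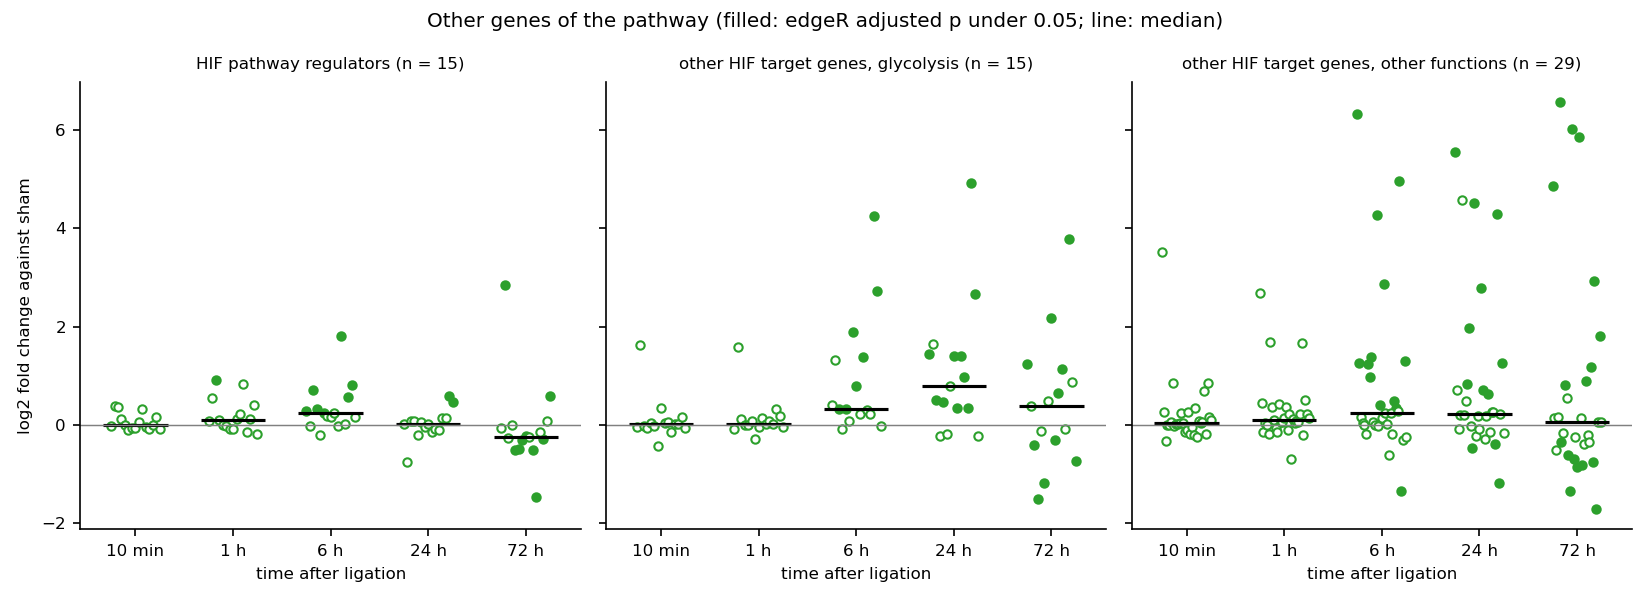
Log2 fold change against sham (vertical axis) of 15 regulators, 15 glycolytic targets and 29 other targets of the HIF system at 5 times, 1 point per gene, with the median as a line. Filled points passed an adjusted p of 0.05 in edgeR. At 24 h all 10 called glycolytic targets are above 0, and at 72 h 5 are above and 5 below.

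In their promoter windows, 10 of 16 glycolytic targets held ACGTG (62.5%), as did 13 of 19 other targets with a window (68.4%) and 2 of 12 regulators (16.7%), against 19.6% of all windows. A gene with several starts counts here if any of its windows held the core. The 19.6% counts each window once and is not a share of genes, so it is not a like measure.

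The genes with profiles most like each member but Car9 are given here, sought among 11664 genes whose counts averaged 50 or more. Likeness was the root mean square difference of centred log2 CPM over the 18 libraries, a measure on which scaling cancels and in which all genes share libraries and depth. Egln1 had the closest matches, Sod2 at 0.05 and Cs at 0.06, and Epas1 was next with Sucla2 at 0.10 and Ndufa9 at 0.12. Hif1a was nearest to Acsl4 at 0.17 and Rlim at 0.18, Ndrg1 to Map2k3 at 0.16 and Nolc1 at 0.16, and Bnip3 to Slco3a1 at 0.16 and Sgms1 at 0.19. Vegfa lay nearest to Apba3 at 0.18 and Tmem136 at 0.18, and Adm to Phlda1 at 0.26 and Mafk at 0.26. Egln3 (Stk40 at 0.29 and Rapgef1 at 0.30) and Ankrd37 (Grwd1 at 0.34 and Nop2 at 0.34) had no gene as close. For scale, the members' own deviations from their means ran from 0.42 for Vegfa to 1.10 for Car9 on the same measure.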

How the data were processed

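The authors deposited, for each of 18 samples, whole read counts per Ensembl gene and FPKM per gene. Per the submitters' processing notes, cutadapt 1.18, HISAT2 2.1.0 and featureCounts were used with mm10; the strand setting is not given in the sources used here. Counts carried no molecular identifiers. The deposited FPKM values gave gene lengths (91.9% equal to GENCODE M21 exon sums) and an alternative test; FPKM files of 6 h replicates 2 and 3 held each other's values. Symbols and coordinates come from GENCODE M21. The members and lists were chosen with earlier results of these data known.

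These counts entered edgeR 4.0.16 under R 4.3.3. The filter filterByExpr removed 14272 genes and left 16311. TMM scaling, glmQLFit (robust, 1 mean per group) and two-sided glmQLFTest followed. Calls were made at a Benjamini-Hochberg adjusted p under 0.05 over the tested genes. The biological coefficient of variation was 0.149. CPM are counts per M (mega) counts on TMM-scaled totals. Alternatives used library totals, RLE scaling, other filters, DESeq2 1.42.0, limma 3.58.1 on log2(FPKM + 1), the 2 groups alone, a replicate block and each library left out; the fit was tested on simulated data. Replicate numbers did not pair samples. Named genes were the 10 members, the 4 genes of each list with the smallest F test p and the 2 most similar profiles per member; those for Car9 are not reported here. Aldoa (its symbol is on 2 gene IDs) and Epo were not analysed here, nor were the protein sequences.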

Additional observations from a re-analysis of the deposited data

Results flagged for a closer look

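Bnip3 was higher than sham at 6 h and lower than sham at 72 h, and the test of 72 h against 6 h gave a log2 difference of -1.76 (edgeR adjusted p = 7.1e-08), lower in all 3 libraries of 72 h than in any of 6 h. Egln2 turned in the same way, with -0.72 between those times (edgeR adjusted p = 2.07e-07), and so did Siah1a, with -0.85 (edgeR adjusted p = 1.22e-06). For Egln2 and Siah1a the side of sham on which 72 h lies depends on scaling. The call of Egln2 at 6 h against sham was also lost in 9 of 15 alternatives.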

How the results depend on the processing

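Of the 17 calls of members against sham, 14 held under every alternative in which the gene was tested, leaving out each library of the groups compared included. The others were Egln3 at 72 h (lost under library totals and limma), Adm at 24 h (lost in the fit of the 2 groups alone and without 24 h or sham replicate 3) and Ankrd37 at 24 h (lost without 24 h replicate 3). Car9 was tested in 14 alternatives and the remaining members in 15, since a filter of 10 counts in every library removed Car9. Of 33 values not called, 6 were called in some setting. No called member reversed.

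Members called at 24 h against 6 h numbered 5, but 3 with no filter, 2 with only the 2 groups, and from 3 to 7 when 1 library was left out. Leaving out 1 of the 18 libraries gave from 4 to 5 members at 6 h, from 4 to 9 at 24 h and 7 to 8 at 72 h against sham. At 24 h the count was 8 with DESeq2 and 9 under library totals or limma. With the replicate block the counts were the same as without it at each time against sham (4, 6 and 7); of the named genes, Plod2 at 6 h was lost (0.34). Across 45 same-number correlations of replicates the range was -0.26 to 0.25, with 0 of 15 group pairs having all over 0.1.

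At 72 h Cited2 was 0.31 under library totals and 0.30 in limma (-0.28 with TMM), Egln2 0.096 and 0.093 (-0.49 with TMM), and Siah1a 0.30 and 0.27 (-0.28 with TMM). Car9 and Ankrd37 are limited by depth, with as few as 4 and 23 counts in a library.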
